A study of Mus musculus with 6 samples.

Results

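To examine how the genes of sterol export responded to the activator of pyruvate kinase M2 (PKM2) DASA-58, 10 genes were followed, namely the liver X receptors (LXRs) Nr1h2 and Nr1h3, the exporters Abca1 and Abcg1, the apolipoprotein gene Apoe, Mylip and Lpcat3, the lysosomal sterol carriers Npc1 and Npc2, and the storage enzyme gene Soat1. They are 10 of the 23504 genes in the table. The genes were chosen by name for their roles, with the lower level of Abcg1 in these same libraries already known, so the difference between the groups is given for them as a description, with no p. Where a member is said to be past the limit of the fit across all genes, this only places it beside the other genes and is no test of the member. All 10 were found and all 10 passed the limit of a mean of 1 FPKM, the fragment count scaled to gene length and to the depth of the library.

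The libraries were made from bone marrow–derived macrophages (BMMs) of 6- to 8-week-old male C57BL/6 mice, grown with M-CSF. The 3 libraries of the DASA-58 group came from cells given DASA-58 and RANKL, the cytokine that drives BMMs toward osteoclasts, and the 3 of the DMSO group from cells given the same volume of the solvent DMSO, all taken after 3 days. The study's results place both groups under RANKL, while its methods name RANKL for the treated group only and spell the compound DASA-48. Neither the dose in this experiment nor whether the replicates came from separate mice is given in the sources used here, so the spread between libraries may be technical.

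LXRs are nuclear receptors that sense oxysterols. Together with a retinoid X receptor (RXR) they bind direct repeats in DNA and switch on genes that move cholesterol out of the cell, Abca1 and Abcg1 among them. In macrophages this pathway disposes of cholesterol taken up with lipoproteins and dead cells, and in osteoclasts the cholesterol content of the membrane is known to bear on fusion and survival.

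The values rested on 639 to 59072 fragments per gene and library, recovered from the steps of the FPKM values. The depth was 18191560 to 18968556 fragments per library. A count of 0 allows up to 3 fragments, and no member came near that limit. The spread between replicates of 1 group, as a coefficient of variation, lay between 0.581% and 11.5%, against 0.423% to 3.73% from counting alone. These ranges cover different genes. In some groups the spread was below that from counting, as for Soat1 with DASA-58 (0.581% against 1.37%) and Lpcat3 with DMSO (2.22% against 3.48%). A spread taken from 3 libraries is imprecise, so nothing is read from this.

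In the DASA-58 libraries Abcg1 stood at 52.0% of its DMSO level and Abca1 at 81.4%, while Apoe stood at 138% and Soat1 at 116%. The other 6 genes had means between 92.5% and 104% of DMSO. Across the whole table, 7.28% of the 10965 genes tested were lower and 4.24% higher past a limit of 0.05 on the p from limma, adjusted by the method of Benjamini and Hochberg. Of the 10 genes, 2 were past the same limit as lower and 2 as higher. In 5 of the 10 the groups did not overlap, as in 33.4% of all genes tested. Nothing is read from these shares, since the choice of genes used this contrast. The median log2 fold change was 0.01 over the 10 genes and -0.03 over all genes tested. The scaling between libraries moved the balance of the calls over all genes, with 63.2% of them lower as deposited, 45.8% after centring on the median and 71.3% with equal library totals.

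**Figure D1:**
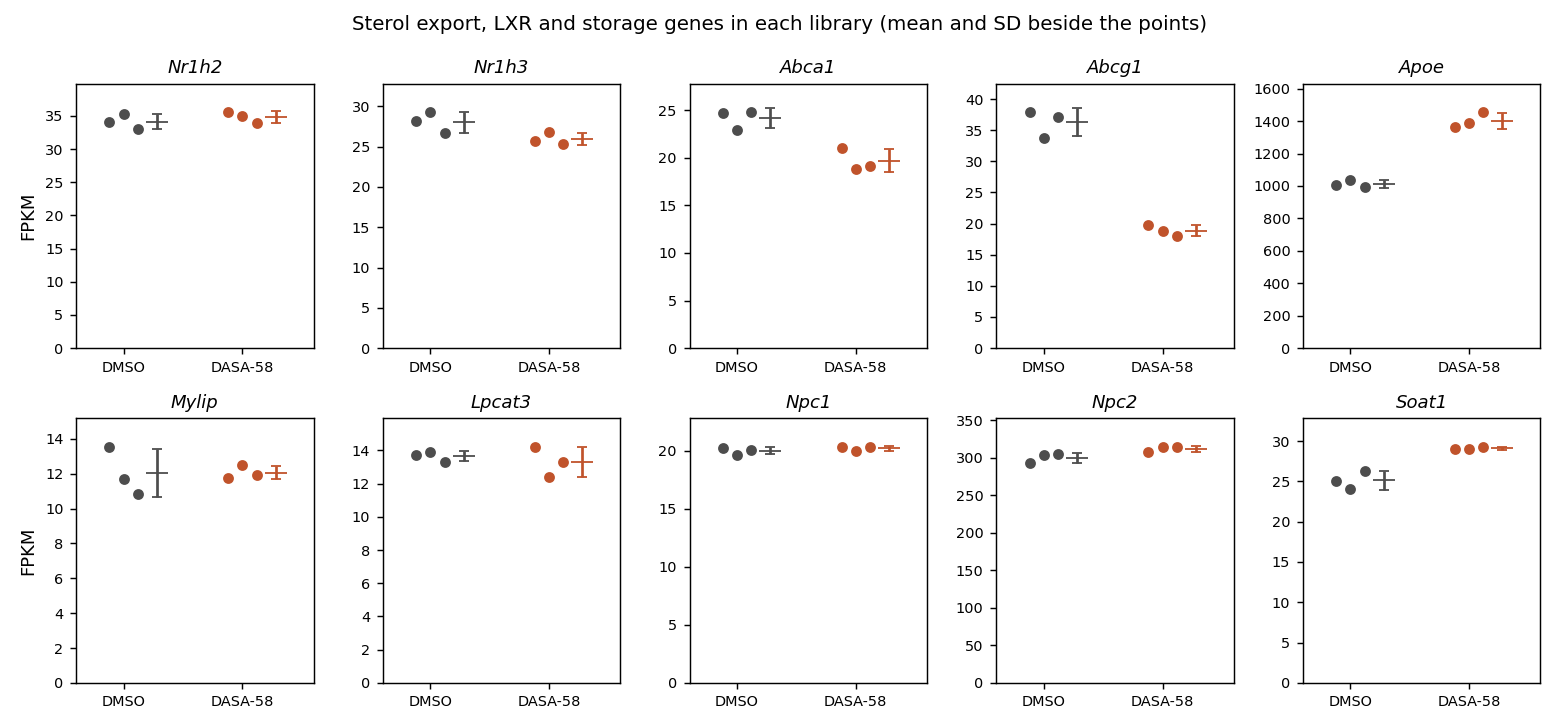
FPKM of the 10 genes in each of the 3 DMSO and 3 DASA-58 libraries (points) with the group mean and SD beside them, each panel on its own linear axis from 0. The Abcg1 panel shows DMSO between 33.8 and 37.9 FPKM and DASA-58 between 18.0 and 19.8 FPKM, and the Apoe panel shows the opposite order.

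The 2 receptors come first. Nr1h2 (ENSMUSG00000060601), the gene of LXRβ, read 34.1, 35.3 and 33.0 FPKM in the DMSO libraries and 35.6, 35.0 and 33.9 FPKM in the DASA-58 libraries. The groups overlapped. Its log2 fold change was 0.03, with a 95% interval from -0.05 to 0.11. Nr1h3 (ENSMUSG00000002108), the gene of LXRα, read 28.1, 29.3 and 26.7 FPKM with DMSO and 25.6, 26.8 and 25.3 FPKM with DASA-58. Here DASA-58 replicate 2 lay just above the lowest DMSO library, and the other 2 treated libraries lay below all DMSO libraries. The mean of Nr1h3 with DASA-58 was 92.5% of that with DMSO, a log2 fold change of -0.11 with an interval from -0.21 to -0.01. This interval is not adjusted for the number of genes. Nr1h3 was not past the limit in the main fit or in any of 18 alternative settings. The ratio of Nr1h3 to Nr1h2 within a library, which a common factor per library cannot move, was 0.822 ± 0.0107 (SD, n = 3) with DMSO and 0.745 ± 0.0229 (SD, n = 3) with DASA-58. Every treated library had a lower ratio than every DMSO library. Nr1h3 shares 34 of its 2515 exon bases with a predicted gene on its own strand.

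Abcg1 (ENSMUSG00000024030) encodes the half-transporter that passes cholesterol to high-density lipoprotein. It read 37.9, 33.8 and 37.2 FPKM in DMSO replicates 1, 2 and 3. In DASA-58 replicates 1, 2 and 3 it read 19.8, 18.8 and 18.0 FPKM. The highest treated library was far below the lowest DMSO library. The mean went from 36.3 ± 2.19 to 18.9 ± 0.905 FPKM (SD, n = 3 each), which is 52.0% of DMSO. The log2 fold change was -0.91 (standard error 0.053), at rank 12 from the lowest among the 10965 genes tested. Taken straight from the means, with nothing added to the FPKM, the log2 ratio was -0.94. These values rested on 2592 to 2830 fragments per DMSO library and 1389 to 1517 per DASA-58 library. For this gene the FPKM steps gave whole fragments with a length of 4066 bases, whereas its exons in GENCODE release M21 cover 7298 bases, so its level relative to other genes depends on the gene model used.

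Abca1 (ENSMUSG00000015243) encodes the transporter that loads cholesterol and phospholipid onto lipid-poor apolipoprotein. It read 24.7, 23.0 and 24.8 FPKM with DMSO and 21.1, 18.8 and 19.1 FPKM with DASA-58. All treated libraries were below all DMSO libraries, with the smallest gap between DASA-58 replicate 1 and DMSO replicate 2. The mean with DASA-58 was 81.4% of DMSO, and the log2 fold change was -0.28 (standard error 0.051). Abca1 was not past the limit without DMSO replicate 1, without a filter on low values or without variance shrinkage, where its log2 fold change stayed at or below -0.24. The 2 exporters thus did not change in proportion. The ratio of Abcg1 to Abca1 within a library was 1.54, 1.47 and 1.499 with DMSO and 0.941, 1.0 and 0.941 with DASA-58, so that it was lower in every treated library than in every DMSO library. With the same Abcg1 fragments spread over its GENCODE length, the ratio was 0.857, 0.820 and 0.835 with DMSO and 0.524, 0.557 and 0.524 with DASA-58. Fragments on bases outside the shorter gene model of Abcg1 are not in these values. Which exporter had the higher level is therefore not settled here.

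Since the exporters are textbook LXR targets, the promoter windows of the members in RefSeq (GRCm38.p6, 250 bases before to 50 after the start) were searched on both strands for the LXR element, a direct repeat of AGGTCA with 4 free bases between the repeats. Windows were held for 8 of the 10 genes, and for Abcg1 and Npc1 none was held. The 250 bases before the start of Abca1, on the minus strand of chr4:53159896-53160145, are shown because they hold the closest match. The capitals mark the repeat, which reads on the opposite strand, and an E-box (CACGTG) upstream of it:
Abca1 promoter: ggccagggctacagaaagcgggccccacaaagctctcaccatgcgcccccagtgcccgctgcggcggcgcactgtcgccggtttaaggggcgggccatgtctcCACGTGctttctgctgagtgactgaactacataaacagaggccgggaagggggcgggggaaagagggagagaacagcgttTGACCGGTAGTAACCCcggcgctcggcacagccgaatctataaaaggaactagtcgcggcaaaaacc

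The repeat lies from base -67 to base -52 and matches 9 of the 12 fixed letters. A match this close or closer was present in 21.9% of the 32851 windows of all genes, and CACGTG in 7.15%. The closest site of each other member with a window matched at most 8 letters, a level reached in 76.9% of all windows. The exact half-site AGGTCA was in 0 of the 11 windows of these members, against 16.3% of all windows. A match is a description of the letters and no evidence of binding. The best sites of Abca1, of Nr1h3, whose own gene is an LXR target in some cells, and of Lpcat3 and Mylip are printed side by side, with the letters that match the repeat in capitals:
Abca1: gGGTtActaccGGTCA
Nr1h3: AGGTCccggcAcGgCc
Lpcat3: AGGTaggaagAGGgCg
Mylip: AGtTCccgggAGcTac

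Apoe (ENSMUSG00000002985) encodes apolipoprotein E, which macrophages secrete and which accepts exported cholesterol. It read 1006, 1040 and 995 FPKM with DMSO and 1362, 1386 and 1457 FPKM with DASA-58. Every treated library was above every DMSO library. The mean was 138% of DMSO, a log2 fold change of 0.47 (standard error 0.032) and rank 84 from the highest of all genes tested. Apoe was the most abundant of the 10 genes in both groups. Within a library it stood at 42.1 ± 2.81 times Abca1 with DMSO and 71.5 ± 6.00 times Abca1 with DASA-58 (SD, n = 3 each). The ratio of Apoe to Abcg1 went from 28.0 ± 2.37 to 74.4 ± 6.10 (SD, n = 3 each).

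**Figure D2:**
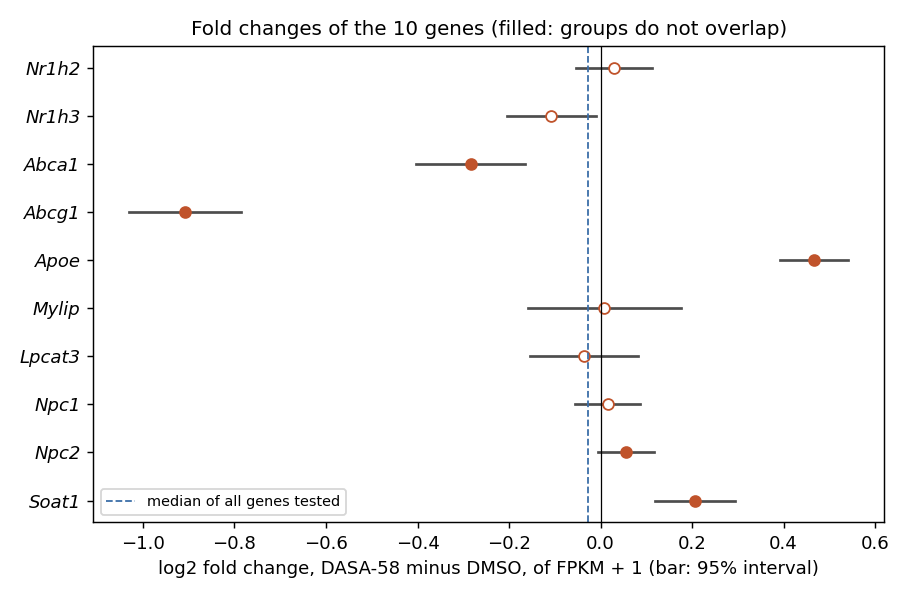
Log2 fold change of FPKM + 1, DASA-58 minus DMSO, of the 10 genes with 95% intervals from limma (bars), filled where the groups do not overlap, with the median of all genes tested as a dashed line. Abcg1 at -0.91 and Apoe at 0.47 lie farthest from 0, in opposite directions.

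Mylip (ENSMUSG00000038175) encodes the ubiquitin ligase, also called IDOL, that LXRs induce to limit the uptake of lipoproteins. It read 13.6, 11.7 and 10.9 FPKM with DMSO and 11.8, 12.5 and 11.9 FPKM with DASA-58, with the treated libraries inside the range of the DMSO libraries. Its log2 fold change was 0.01, with an interval from -0.16 to 0.18, and 4 of 18 alternative settings turned its sign. Lpcat3 (ENSMUSG00000004270) encodes the acyltransferase that puts polyunsaturated chains into phospholipids. It read 13.7, 13.9 and 13.3 FPKM with DMSO and 14.2, 12.4 and 13.3 FPKM with DASA-58, where the treated libraries were both the highest and the lowest. The log2 fold change was -0.04, with an interval from -0.15 to 0.08. Of the exon bases of Lpcat3, 334 overlap Emg1 on the opposite strand, and the use of strand in counting is not given in the sources used here, so fragments there could belong to either gene.

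Npc2 and Npc1 act in turn, Npc2 in the lumen of the lysosome and Npc1 in its membrane, to hand cholesterol to the rest of the cell. Npc1 (ENSMUSG00000024413) read 20.3, 19.7 and 20.1 FPKM with DMSO and 20.4, 19.97 and 20.3 FPKM with DASA-58. The groups overlapped, the log2 fold change was 0.02 and the interval, from -0.06 to 0.09, was narrow. Npc2 (ENSMUSG00000021242) read 292, 303 and 304 FPKM with DMSO and 307, 314 and 315 FPKM with DASA-58. All treated libraries of Npc2 were above all DMSO libraries, but by little, with a mean at 104% of DMSO and an interval of the log2 fold change from -0.01 to 0.12. The ratio of Npc2 to Npc1 overlapped between the groups, at 15 ± 0.515 and 15.4 ± 0.328 (SD, n = 3 each). The exons of Npc1 share 511 bases with Rmc1 on the opposite strand, and its fragments were whole at a length of 10725 bases, where GENCODE gives 11317.

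Soat1 (ENSMUSG00000026600) encodes the enzyme that turns free cholesterol into esters for storage in droplets. It read 25.1, 24.0 and 26.3 FPKM with DMSO and 29.0, 29.0 and 29.3 FPKM with DASA-58. The treated libraries were all above the DMSO libraries. Their spread of 0.581% was below the 1.37% from counting alone, though a spread taken from 3 libraries is imprecise. The mean was 116% of DMSO and the log2 fold change 0.21 (standard error 0.038). Soat1 was not past the limit without DMSO replicate 1, without DASA-58 replicate 3 or without variance shrinkage. Nceh1, which encodes a hydrolase that frees cholesterol from such esters, was higher in like proportion. The ratio of Soat1 to Nceh1 was 0.639 ± 0.0170 with DMSO and 0.637 ± 0.0229 with DASA-58 (SD, n = 3 each), with overlap between the groups.

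**Figure D3:**
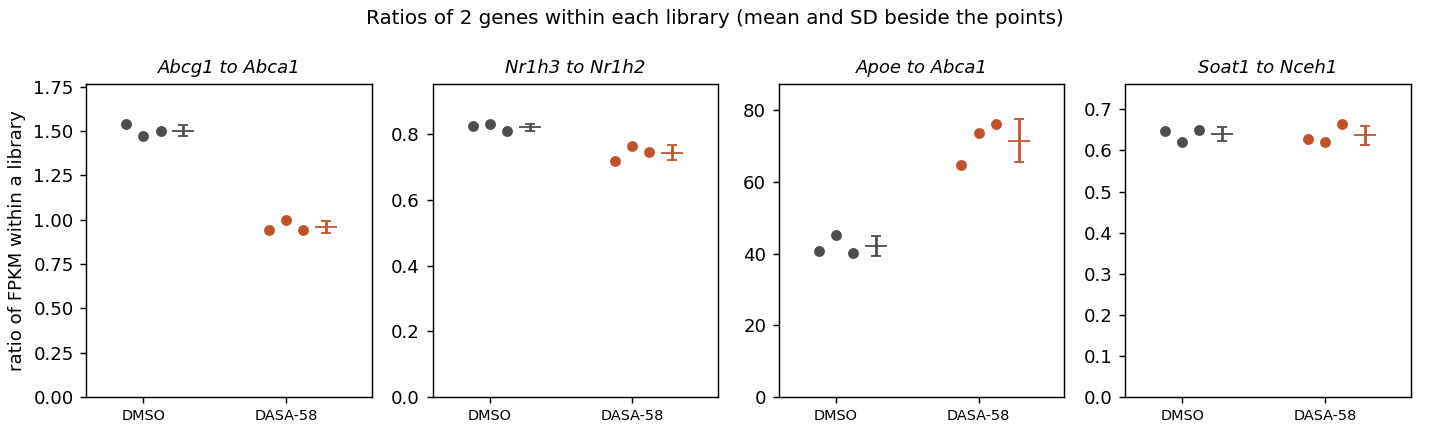
Ratio of the FPKM of 2 genes within each of the 3 DMSO and 3 DASA-58 libraries (points), with mean and SD beside them, each panel on a linear axis from 0. The ratio of Abcg1 to Abca1 lies between 1.47 and 1.54 with DMSO and between 0.941 and 1.0 with DASA-58, while the ratio of Soat1 to Nceh1 overlaps.

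The order of the levels per length changed mainly through Abcg1. With DMSO it ran from Apoe over Npc2, Abcg1, Nr1h2, Nr1h3, Soat1, Abca1, Npc1 and Lpcat3 to Mylip. The libraries of the neighbours Abcg1 and Nr1h2, of Soat1 and Abca1, and of Lpcat3 and Mylip overlapped. With DASA-58 Abcg1 stood at position 8 instead of 3, and Soat1 at position 4 instead of 6. The neighbours Npc1 and Abca1, Abca1 and Abcg1, and Lpcat3 and Mylip overlapped there. Abcg1 was placed with the authors' FPKM, on the shorter gene model named above. Its place on the GENCODE model is not known, since fragments on bases outside the shorter model are not in these values.

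The other genes of sterol handling were taken from 5 lists with 71 genes, of which 69 were in the table and 55 could be tested. At an adjusted p under 0.05, 2 of the 55 fell and 15 rose, beside 7.28% and 4.24% of all genes tested. The lists were chosen with earlier results of these data known. Nothing is read from their counts against those shares, and the p given below are a description. All 17 kept their sign, and 11 kept their call, under each alternative setting in which they were tested. That was 18 settings for 16 of them and 17 for Osbpl1a, whose mean was too low for the filter at 5 FPKM. Settings that change only the filter, the variance model or the block cannot move the sign.

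Of 12 partners and coregulators of LXR, Rxra alone passed, with 11 others not past the limit and a median log2 fold change of -0.03, as over all genes. Rxra encodes an RXR that pairs with LXRs. It read 16.6, 15.2 and 16.2 FPKM with DMSO and 20.2, 19.5 and 19.98 FPKM with DASA-58. It rose by 0.30 on the log2 scale (standard error 0.041, adjusted p = 0.0041).

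Of 10 further LXR target genes tested, 1 fell and 4 rose, with a median log2 fold change of 0.02, so these genes did not move in 1 direction. The gene that fell was Pltp, which encodes the phospholipid transfer protein of plasma. Pltp read 162, 163 and 158 FPKM with DMSO and 121, 112 and 115 FPKM with DASA-58, at 72.2% of DMSO (log2 fold change -0.47, standard error 0.033, adjusted p = 2.3e-04). Cd5l, a protein that macrophages secrete, moved the other way. It read 15.8, 14.6 and 14.9 FPKM with DMSO and 25.4, 25.8 and 24.6 FPKM with DASA-58 (log2 fold change 0.70, standard error 0.039, adjusted p = 7.0e-05). Smpdl3a, a secreted phosphodiesterase, rose to 127% of DMSO (adjusted p = 4.8e-04), and Mertk, a receptor for the uptake of dying cells, to 124% (adjusted p = 0.015). Mertk, which is also in the macrophage marker list, was not called without DASA-58 replicate 1, where 2 of these targets rose in place of 4. Scd2, a fatty acid desaturase, rose to 115% (adjusted p = 0.045), a call that 11 of 18 alternative settings did not give, the removal of any 1 library included. The means of Apoc1, Apoc2, Abcg5, Abcg8 and Scd1 were under 1 FPKM, and these genes were not tested.

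**Figure D4:**
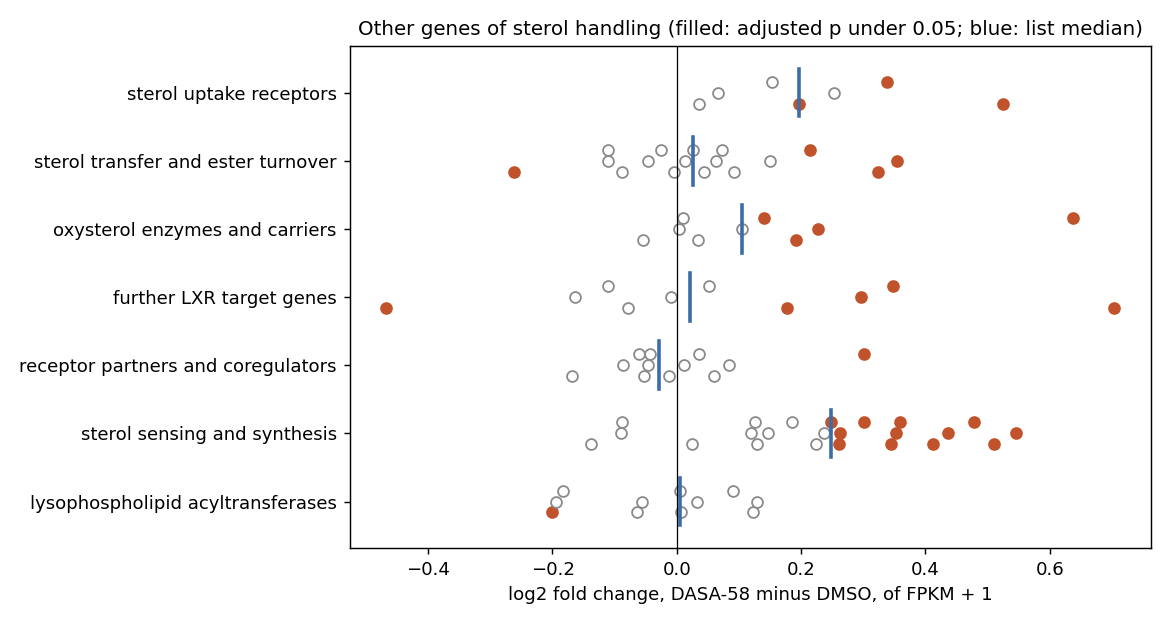
Log2 fold change of FPKM + 1, DASA-58 minus DMSO, of every tested gene (points) in the 5 lists of sterol handling and 2 lists for comparison, filled at an adjusted p under 0.05 from limma, with the median of each list in blue. The target genes of LXR lie on both sides of 0, from Pltp at -0.47 to Cd5l at 0.70.

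Among 9 genes tested of the enzymes that make or use oxysterols and of their carriers, 4 rose and 0 fell, and 5 were not past the limit (median log2 fold change 0.10). Cyp27a1, which makes an oxysterol, rose to 115% of DMSO (adjusted p = 0.036). The transporter gene Abcc1 rose to 110% (adjusted p = 0.027) and the oxysterol-binding gene Osbpl1a to 122% (adjusted p = 0.033). The calls of Cyp27a1 and Abcc1 were each absent in 9 of 18 alternative settings and that of Osbpl1a in 9 of 17, among them the removal of DMSO replicate 1, 2 or 3 and of DASA-58 replicate 1 or 3, and for Abcc1 and Osbpl1a also of DASA-58 replicate 2. With 1 library left out, 1 or 2 genes of this list rose in place of 4.

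Sterol transfer and ester turnover held 17 tested genes, of which 3 rose and 1 fell (median log2 fold change 0.03). Lipa, the gene of lysosomal acid lipase, which frees cholesterol from lipoprotein esters ahead of Npc2 and Npc1, read 513, 507 and 534 FPKM with DMSO. With DASA-58 it read 646, 653 and 645 FPKM (log2 fold change 0.32, standard error 0.026, adjusted p = 4.7e-04). As Npc1 stayed at 101% of DMSO, the ratio of Npc1 to Lipa went from 0.0386 ± 0.000978 to 0.0312 ± 0.000545 (SD, n = 3 each). Nceh1 rose to 116% (adjusted p = 0.0078) and Stard4, a cytosolic sterol carrier, to 134% (adjusted p = 0.0065). Cav1, the gene of caveolin, fell to 83.2% (adjusted p = 0.0017).

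Of 7 uptake receptor genes tested, 3 rose and 0 fell (median log2 fold change 0.20). The scavenger receptor gene Cd36 went from 347 ± 13.5 to 499 ± 11.3 FPKM (SD, n = 3 each, adjusted p = 1.4e-04), and Msr1, another scavenger receptor gene, to 127% of DMSO (adjusted p = 0.0017).

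In a list of sterol sensing and synthesis genes, also chosen with earlier results known, 12 of 23 tested genes rose and 0 fell. Over all genes tested, 4.24% rose and 7.28% fell, and nothing is read from this difference. The median log2 fold change of the 23 genes was 0.25. Without DASA-58 replicate 2, 7 of them rose, Fdft1 not among them, and 7 rose without variance shrinkage and 6 without a filter on low values. The 6 with the largest change, Cyp51, Msmo1, Sqle, Insig1, Idi1 and Fdft1, had log2 fold changes between 0.36 and 0.55. Srebf2, itself in this list and the gene of a factor that drives genes of sterol synthesis, rose to 120% (adjusted p = 0.0044). Its part in the other calls was not tested. Among 11 tested genes of acyltransferases related to Lpcat3, only Lpcat1 passed. It fell to 86.2% of DMSO (adjusted p = 0.031), and its call was absent in 9 of 18 alternative settings, among them the removal of DMSO replicate 1 or of any 1 DASA-58 library.

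Markers of some cell types differed between the groups. All 13 macrophage markers, Adgre1 and Csf1r included, were found in every library. Their summed level was 18831 to 19812 FPKM with DMSO and 20359 to 22789 FPKM with DASA-58. Most of this sum was Lyz2, with a mean of 15991 FPKM over all libraries, whose groups overlapped and which was not past the limit. Of the 13 markers, 7 rose and 2 fell, beside 4.24% and 7.28% of all genes tested. Of the osteoclast markers, 10 of 11 tested fell and 0 rose, and the sum over 12 genes was 1015 to 1079 FPKM with DMSO and 668 to 689 FPKM with DASA-58, with none of them at 0. The levels of the 11 tested markers with DASA-58 ranged from 46.5% to 104% of DMSO with a median of 53.2%, beside 52.0% for Abcg1. Neutrophil markers summed to 126 to 132 FPKM and 102 to 106 FPKM, with 3 of 6 tested lower and Ly6g at 0 in some libraries. Stromal markers summed to 34.6 to 36.9 FPKM and 35.3 to 36.1 FPKM, with 0 of 3 tested past the limit. The markers of T and NK cells, where Cd3d, Cd3g and Cd8a were at 0 in some libraries, reached at most 6.46 FPKM in sum. Most of that was Cd4, with a mean of 5.49 FPKM over all libraries. The markers of B cells, with Ms4a1 at 0 in some libraries, reached at most 2.38 FPKM in sum. Those of dendritic, erythroid and mast cells stayed under 1 FPKM in sum. The part of these cell types in the levels of the sterol genes was not tested, and in such bulk samples fewer cells of a type and less RNA per cell cannot be told apart.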

How the data were processed

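RNA-seq of mouse BMMs gave 6 libraries, 3 with DASA-58 and 3 with DMSO, grouped by the treatment in the sample labels. The authors deposited FPKM values per Ensembl gene. The submitters' processing notes name HISAT2 2.1.0, HTSeq 0.6.0 and mm8. Exon lengths of GENCODE M21 (GRCm38), which also gave symbols for 23455 of 23504 identifiers, turned the FPKM into whole fragments (within 0.05) for 91.2% of genes. Another 1386 tested genes, Abcg1 and Npc1 among them, received the smallest length that gave whole fragments (within 0.01). Annotation and strand setting are not given in the sources used here. Limits from fragments cover counting error only.

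log2(FPKM + 1) was fitted with limma 3.58.1 in R 4.3.3 (eBayes with a trend, all 6 libraries, no block) for 10965 genes averaging 1 FPKM or more, and p was adjusted over all of them (Benjamini-Hochberg). Fold changes on this scale understate the change of low genes. Members and lists were chosen with earlier results of these data known. Named were all members and, per list, every gene past the limit or, above 6, the 6 with the largest change. Of the genes so named, 2 are not reported here by name but are in the counts. The ratios and the naming of Srebf2 were chosen after values were seen. Alternatives were other pseudocounts, filters, scalings and variance models, the replicate number as a block, each library left out in turn and, added after seeing the data, voom weights.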

Additional observations from a re-analysis of the deposited data

How the results depend on the processing

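Under the 18 alternatives the log2 fold change ranged from -0.96 to -0.79 for Abcg1, from 0.44 to 0.50 for Apoe, from -0.33 to -0.24 for Abca1 and from 0.18 to 0.24 for Soat1. Without a filter on low values 629 genes were called in place of 1263, with 1 of the 10 genes lower. Without variance shrinkage 541 genes were called, with 1 of the 10 genes lower and 1 higher, and 9 other pathway genes rose. An alternative added only after the data had been seen, voom weights from recovered fragments, gave other counts, as 2069 genes were called and 4 other pathway genes fell. With 1 library left out, 669 to 978 genes were called, with 1 or 2 of the 10 genes lower and 1 or 2 higher. The cause was not tested.

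The replicate numbers did not pair the libraries, as same-numbered libraries had correlations of their deviations from -0.02 to 0.02. With the replicate block 957 genes were called, 2 of the 10 genes were past the limit as lower and 2 as higher and 12 other pathway genes rose. Of 180 values of the 10 genes under alternatives, 173 moved by less than the spread between replicates. These 173 include the settings that change only the filter, the variance model or the block, which cannot move a fold change. The other 7 were Abcg1 with a pseudocount of 5 and Npc1 and Npc2 under 3 scalings. With 3 libraries a group, a difference as small as that of Npc2 or Nr1h3 was not called at this depth and spread.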
